A study of Schizocardium californicum with 12 samples.

Results

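Cytochromes P450 are haem enzymes that use molecular oxygen to hydroxylate steroids, sterols, fatty acids, retinoids and foreign compounds. In animals they sit in the endoplasmic reticulum, where NADPH-P450 reductase and cytochrome b5 hand them electrons, or in mitochondria, where adrenodoxin does. The family grows by local gene duplication, so that many animals carry large sets of copies for the same subfamily, and in vertebrates some members clear toxins while others make or destroy hormones and signalling lipids such as retinoic acid and vitamin D. The genes described here are those of the hemichordate acorn worm Schizocardium californicum whose annotated name is a P450 name of the form Cp followed by a family number, a subfamily letter and, where there is more than 1 gene of that name, a copy number. Of 27463 genes, 218 matched, and the 164 of these with 60 or more reads over all libraries are the members described below. How the names were given is not stated in the sources used here, so a name places a gene near a known P450 and does not make it the same gene.

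The samples were pools of 5 whole animals, with 3 libraries in each of 4 groups: juveniles given 200 Gy of X-rays, untreated control juveniles, tornaria larvae given 120 Gy of X-rays, and untreated control larvae. RNA was taken 3 days after irradiation, when both stages had been kept in filtered seawater. The methods describe the libraries of a group as independent biological replicates. The doses differ between the stages, so stage and dose cannot be told apart where the 2 responses are set side by side. Libraries held 7675726 to 26974509 reads on genes, and trunk Hox genes, which pattern the juvenile body, were higher in control juveniles for 7 of 14 genes tested and lower for 0.

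The threshold of 60 reads had members close to it on both sides. Just inside it were Cp4fn-5 and Cp2u1-11 with 60 reads each and Cp2u1-45 with 68, and just outside it were Cp17a-6 with 58, Cp17a-21 with 57 and Cp2u1-16 with 55. The 54 genes left out had a median of 18.5 reads, 4 of them had 0 reads, and together they held 0.307% of the reads on all matched genes. Of the 164 members, 155 passed the filter on low counts and were tested.

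The family was dominated by a few subfamilies. There were 32 Cp4f members (the subfamily that hydroxylates fatty acids and leukotrienes in mammals), 31 Cp2u, 20 Cp17a (the steroid hydroxylase and lyase of vertebrates), 14 Cp1a (aromatic hydrocarbon hydroxylases of vertebrates), 13 Cp2j (fatty acid epoxygenases in mammals), 11 Cp24a (the vitamin D-inactivating enzyme of vertebrates), 9 Cp20a, 6 Cp3a (drug and steroid hydroxylases of mammals) and 28 others. Gene models differed by subfamily. Cp2u members had a median of 3 exons and no more than 4, whereas Cp4f and Cp24a members had a median of 9 and Cp20a members a median of 11. The median summed exon length over all members was 1515 bases, and 6 members had a single exon.

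Members lay on 24 chromosome sequences or scaffolds of the genome assembly, with 76 of them on the 5 richest. All 9 Cp20a members were on chromosome 5, 7 of 20 Cp17a members on chromosome 8, and 6 of 11 Cp24a members on chromosome 2. Positions along a chromosome were not used here. Copies of a subfamily can share reads: 9 members had under 50% of their reads placed uniquely and 130 had 90% or more. Among tested genes this was the case, under 50%, for 5.81% of members and 4.32% of all genes. Reads shared between copies make the level of such a member uncertain, and the unique share is given wherever a member with a low one is described.

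Levels were compared between genes in RPKM (exon reads scaled by exon length and by the mapped reads of the library), as deposited. Summed over the 164 members, RPKM was 812 ± 42.5 in irradiated juveniles, 757 ± 42.8 in control juveniles, 1029 ± 65.0 in irradiated larvae and 926 ± 146 in control larvae (SD, n = 3 each). The 6 larval libraries lay between 838 and 1103 RPKM and the 6 juvenile libraries between 710 and 856 RPKM, so the 2 stages overlapped slightly. Members took 0.200% of gene reads in irradiated juveniles, 0.179% in control juveniles, 0.258% in irradiated larvae and 0.240% in control larvae.

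A small number of members carried much of this sum. The 5 highest made up 37.1% of it in irradiated juveniles, 39.2% in control juveniles, 44.8% in irradiated larvae and 42.2% in control larvae, while the median member stood at 1.27, 1.25, 1.14 and 0.971 RPKM in the same order. Cp17a-18, on chromosome 22, ranked first in every group, with 92.8 ± 6.46 RPKM in irradiated juveniles, 111 ± 3.67 in control juveniles, 189 ± 29.6 in irradiated larvae and 158 ± 25.7 in control larvae. In control juveniles the next were Cp11a-1 (named for the enzyme that cuts the cholesterol side chain in vertebrates) at 56.4 ± 1.08 RPKM, Cp2r1-1 (named for a vitamin D hydroxylase) at 51.4 ± 22.3, Cp24a-8 at 42.8 ± 4.38 and Cp1a1-5 at 35.2 ± 2.64. The lowest and highest control juvenile libraries were 30.1 and 74.6 RPKM for Cp2r1-1, a range that held the values of Cp11a-1 and Cp24a-8, so the order of those neighbours is not fixed beyond their spread. In control larvae the next were Cp17a-12 at 73.5 ± 11.1 RPKM, Cp11a-1 at 65.7 ± 4.94, Cp1a5-1 at 48.0 ± 19.5 and Cp24a-8 at 45.6 ± 7.96, and no neighbouring pair among these 4 was separated by more than its spread. The model of Cp11a-1 is a single exon of 456 bases, shorter than most members.

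**Figure D1:**
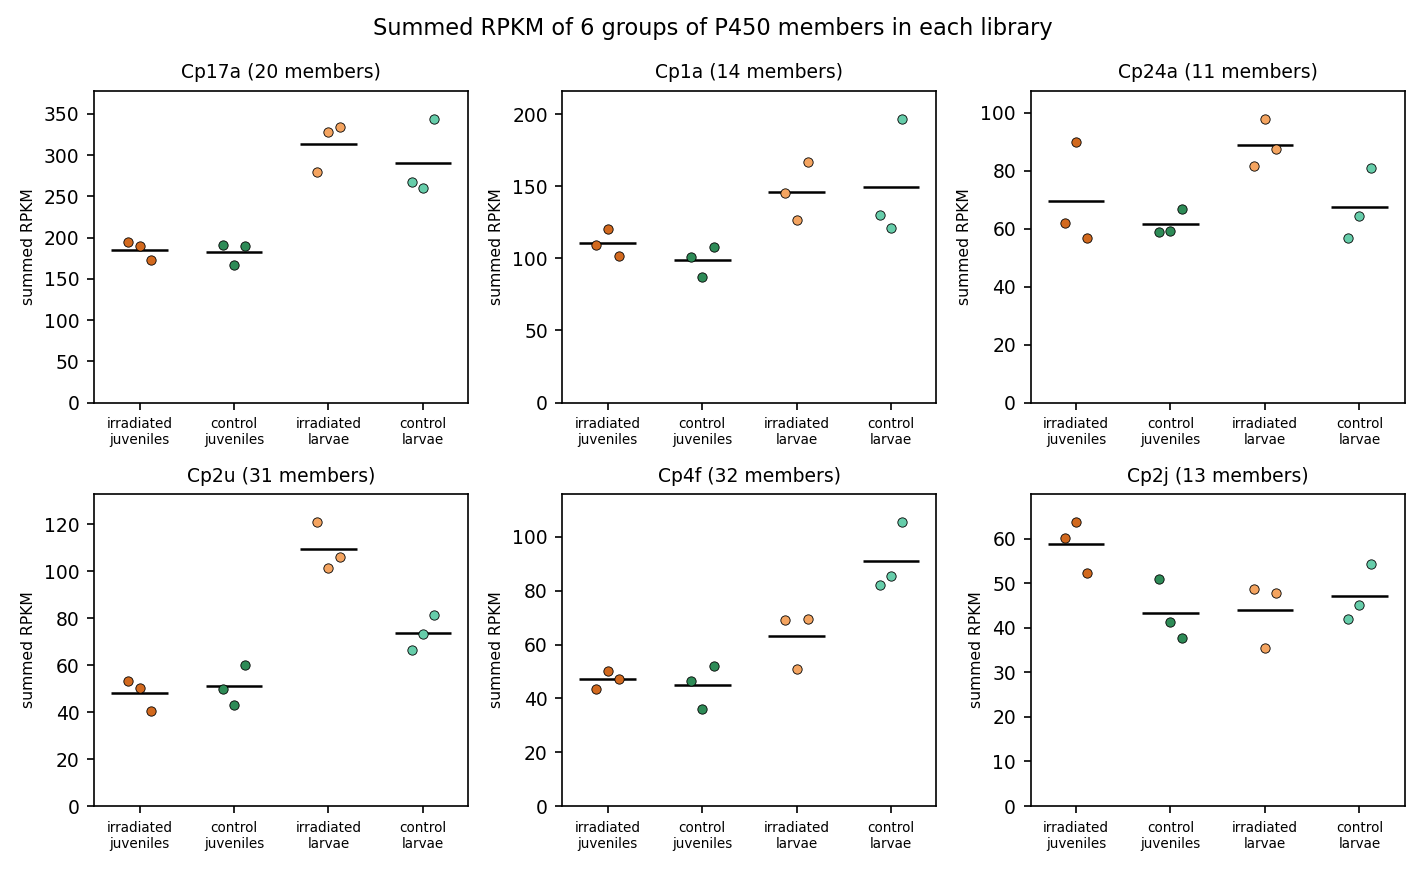
Summed RPKM of 6 groups of members in each library, with irradiated juveniles, control juveniles, irradiated larvae and control larvae from left to right (points are libraries, lines are group means). The Cp4f sum lay at 51.0 to 69.4 in irradiated larvae and 82.3 to 105 in control larvae, and the Cp2u sum at 101 to 121 in irradiated larvae and 66.6 to 81.4 in control larvae.

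The first comparison asked which P450 genes the juvenile and the larva use, and set control juveniles against control larvae. Within a gene, values are normalized counts, that is, reads divided by the library's effective size and scaled to a common library. Tests were edgeR quasi-likelihood tests over all 20780 genes tested, with Benjamini-Hochberg adjusted p of 0.05 or less called. Of 155 members, 58 were higher in control juveniles (37.4%, against 32.8% of all genes tested) and 47 were lower (30.3%, against 29.8%), and 67.7% were called in either direction, against 62.6% of all genes. With 10 reads or more asked of each library, which leaves out genes near 0 in either stage, 15 were higher and 24 lower. The greater number on the juvenile side was thus not kept. The sizes reached far: 31 members were at least 8-fold higher and 16 at least 8-fold lower by the fitted change. Those with no read in 1 group reached that size at their bound as well. Fitted log2 changes ran from -11.8 to 10.4 for members and from -16.5 to 14.4 for all genes tested. The share of all genes at 8-fold or more was not counted, so large sizes are not shown to be particular to P450 genes. A member near 0 in 1 stage met the threshold on reads only through the other stage, which favours large sizes. Muscle markers rose in juveniles for 7 of 9 genes tested and fell for 1, with a summed RPKM of 1980 to 2110 in control juveniles and 282 to 316 in control larvae. In whole animals, fewer cells of a type and less RNA per cell cannot be told apart, and the part of tissue makeup in the P450 differences was not tested.

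**Figure D2:**
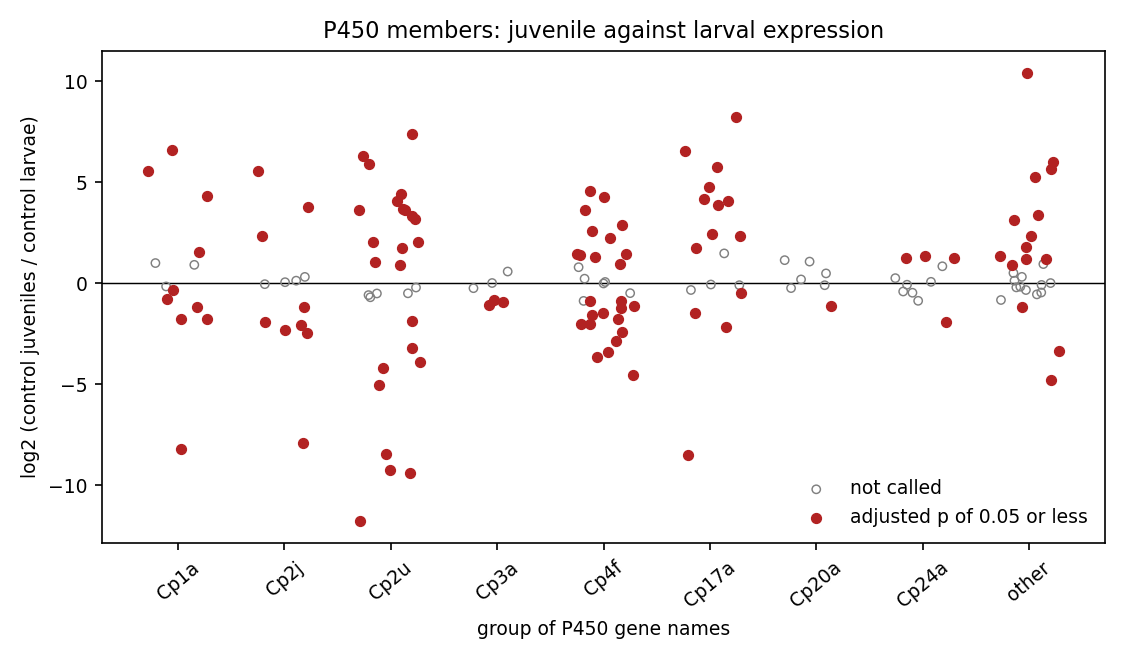
Difference between control juveniles and control larvae (log2, vertical axis) for each member, by group of names. Filled points passed the adjusted p of 0.05, and for a member with no read in 1 of the groups the point is drawn at the bound set by 3 reads. Cp2u and Cp17a members reached far in both directions, while Cp20a and Cp3a members stayed nearer to 0.

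On the juvenile side the most extreme member was Cp2r1-1, on chromosome 23. It had 1355, 3530 and 2274 normalized counts in control juveniles and 0, 4.39 and 0 in control larvae. The log2 difference was 10.39 ± 0.77 (SE, adjusted p = 1.04e-07). Irradiated animals had the same split, with 1969, 1123 and 3496 normalized counts in juveniles and 1.45, 3.61 and 0 in larvae. Its level varied about 3 times among libraries of the same juvenile group, which is wide beside the other abundant members.

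Other members of the wider Cp2 family also sat almost wholly on the juvenile side. Cp2u1-49 had 68.7, 43.6 and 92.8 normalized counts in control juveniles and no read in the 3 control larva libraries, which makes it at least 60.7-fold higher (3 reads over the group as the floor). Cp2u1-48 and Cp2u1-47, both on chromosome 4, averaged 297 ± 64.6 and 201 ± 16.5 normalized counts in control juveniles and 1.71 ± 1.65 and 2.11 ± 2.07 in control larvae (SD, n = 3 each). Cp2d9 and Cp2m1, also on chromosome 4, averaged 344 ± 91.8 and 88.5 ± 27.6 in control juveniles and 7.77 ± 6.06 and 1.84 ± 3.20 in control larvae, where Cp2m1 had 3 reads in all. These 4 genes did not overlap between the stages, and they were picked for their stage difference. Over all genes tested, 35.4% had every control juvenile library above every control larva library. Of the 11 members on chromosome 4, 5 were higher and 3 lower in control juveniles, beside 32.8% and 29.8% of all genes tested.

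On the larval side Cp2u1 copies led as well. Cp2u1-32, on chromosome 20, had 1.30, 0 and 0 normalized counts in control juveniles (1 read) and 1574, 1931 and 1453 in control larvae, a ratio of 4762 in favour of larvae with a 95% exact counting interval of 854 to 188143. Cp2u1-30, on the same chromosome, had no read in any juvenile library and 389, 316 and 409 normalized counts in control larvae, so it was at least 354-fold lower in control juveniles. Cp2u1-29 had 1.30, 0 and 0.687 normalized counts in control juveniles and 504, 437 and 572 in control larvae. Only 37.0% of the reads of Cp2u1-30 and 32.5% of those of Cp2u1-29 were placed uniquely, against 89.1% for Cp2u1-32, so the split of reads between these copies is uncertain while each of the 3 had at most 1 read in any control juvenile library. The exception among the tested copies of Cp2u1 on chromosome 20 was Cp2u1-31, which was higher in control juveniles (log2 4.06 ± 0.76, adjusted p = 0.000418). Cp2u1-25, on chromosome 22, had 1 read in control juveniles and 286, 272 and 373 normalized counts in control larvae. Over the Cp2u subfamily, 15 of 29 tested members were higher in control juveniles and 9 lower, leaving 5 that were not called. Over all genes tested, 32.8% were higher and 29.8% lower.

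Cp17a members split in the same way by chromosome. All 6 tested copies on chromosome 8 were higher in control juveniles and 0 were lower, whereas on chromosome 2 none of the 3 was higher and 2 were lower. Over all genes tested, 32.8% were higher and 29.8% lower in control juveniles. Summed over the 7 members on chromosome 8, normalized counts were 559, 414 and 679 in control juveniles and 22.1, 29.7 and 19.7 in control larvae. Over the 3 members on chromosome 2 they were 2058, 1808 and 2127 in control juveniles and 5524, 5861 and 7044 in control larvae. The copies on chromosome 8 had 58.8% of their reads placed uniquely and those on chromosome 2 had 99.3%. Copies on chromosome 8 can therefore share reads, and their 6 calls are not wholly separate results. The grouping by chromosome was chosen after the values were seen and carries no test. Among single genes, Cp17a-9 had 140, 171 and 163 normalized counts in control juveniles and 0, 0 and 1.04 in control larvae (1 read), a ratio of 383 with a counting interval of 68.5 to 15177. Cp17a-3 and Cp17a-8 averaged 128 ± 40.3 and 74.0 ± 15.3 in control juveniles, against 3 reads each in control larvae. On the larval side Cp17a-24, on chromosome 4, had 1 read in control juveniles and 135, 139 and 238 normalized counts in control larvae. Over the subfamily 10 of 18 tested members were higher in control juveniles and 4 lower, and the call for Cp17a-23, among the 10, was lost without control juvenile library 1 or control larva library 1 or 2 (adjusted p = 0.0696 to 0.102).

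**Figure D3:**
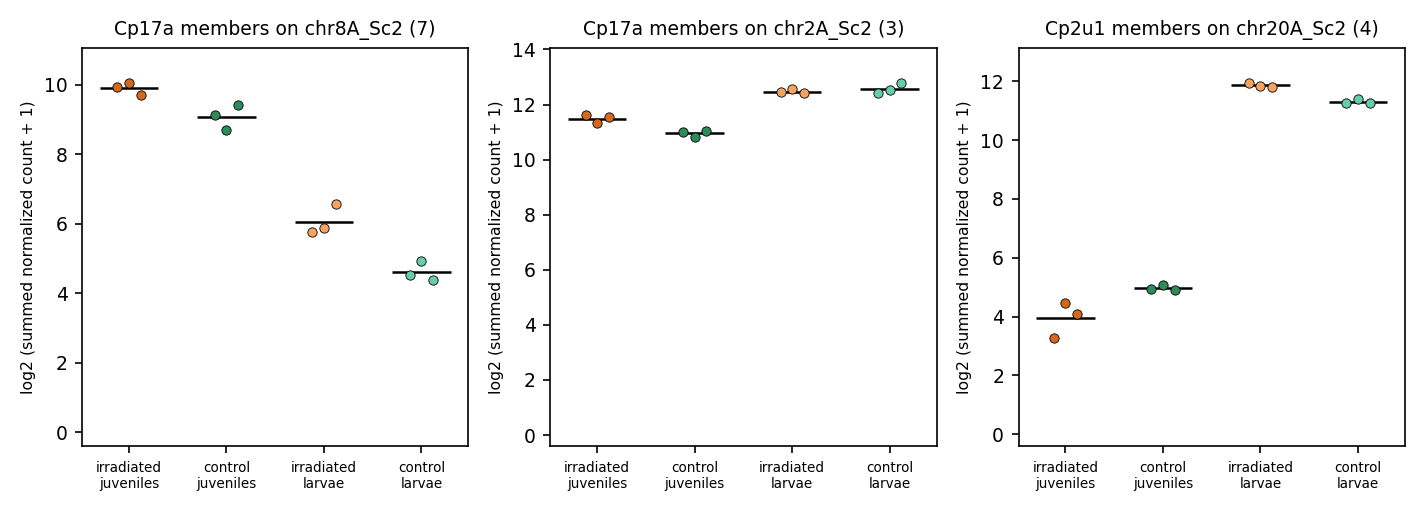
Summed normalized counts (log2 of the sum + 1) in each library for Cp17a members on chromosome 8, Cp17a members on chromosome 2 and Cp2u1 members on chromosome 20, with irradiated juveniles, control juveniles, irradiated larvae and control larvae from left to right (points are libraries, lines are means of the log2 values). The set on chromosome 8 was higher in juveniles and the set on chromosome 20 in larvae. In both stages the irradiated libraries of the chromosome 8 set were above the controls.

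Cp1a members, named for vertebrate enzymes that oxidise aromatic hydrocarbons under the aryl hydrocarbon receptor, were higher in control juveniles for 4 of 13 tested and lower for 6. Over all genes tested, 32.8% were higher and 29.8% lower. Cp1a1-8 averaged 174 ± 26.3 normalized counts in control juveniles and 1.94 ± 1.51 in control larvae. Cp1a4-1 averaged 260 ± 37.6 in control juveniles and 6.46 ± 5.71 in control larvae. In the other direction Cp1a1-9 had 2 reads in all in control juveniles and 207, 256 and 272 normalized counts in control larvae. Cp1a5-1, abundant in both stages, averaged 523 ± 31.9 in control juveniles and 1756 ± 652 in control larvae. The smallest called difference of a Cp1a member was that of Cp1a1-5 (log2 -0.31 ± 0.12, adjusted p = 0.0416), whose call was lost without irradiated juvenile library 2, control juvenile library 1 or 2, or control larva library 1 or 3 (adjusted p = 0.0514 to 0.123).

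Cp4f members were higher in control juveniles for 11 of 31 tested and lower for 14, and Cp2j members for 3 and 6 of 13. The shares of all genes tested were 32.8% higher and 29.8% lower. Larval-side members included Cp4fe-5, with 15.5 ± 2.64 normalized counts in control juveniles and 369 ± 52.4 in control larvae, and Cp2j6-3, with 3 reads in all in control juveniles and 255, 267 and 322 normalized counts in control larvae. Cp4x1, on chromosome 22 and outside the Cp4f subfamily, averaged 3.34 ± 1.16 in control juveniles and 89.7 ± 17.8 in control larvae. Cp2u1-7 averaged 1.41 ± 0.134 and 50.2 ± 8.49 in the same order. The Cp3a members were called lower in control juveniles for 3 of 6 and higher for 0, with changes smaller than those above (-1.08 to -0.81 on the log2 scale).

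Members of Cp20a, Cp24a and the single-reaction families were counted in the same way, beside 32.8% of all genes higher and 29.8% lower. Of 7 tested Cp20a members, whose substrate is not established in vertebrates, 1 was lower in control juveniles and 0 were higher. That gene, Cp20a-8 (log2 -1.14 ± 0.40, adjusted p = 0.0243), lost its call without control juvenile library 3 or control larva library 3 (adjusted p = 0.113 and 0.0779). Of 11 Cp24a members, 3 were higher in control juveniles (Cp24a-4, Cp24a-6 and Cp24a-7) and Cp24a-10 was lower, and 66.4% and 38.9% of the reads of Cp24a-4 and Cp24a-6 were placed uniquely. On uniquely placed reads Cp24a-6 missed the threshold (adjusted p = 0.05005). Cp27a-1 and Cp39a (sterol hydroxylases in mammals), Cp46a-1 (a brain cholesterol hydroxylase in mammals), Cp11a-1 and Cp51a (the sterol demethylase shared by most eukaryotes) were not called. Cp46a-4 was lower in control juveniles (log2 -3.34 ± 0.48, adjusted p = 5.24e-05, 61.8% of reads placed uniquely). Cp51a averaged 64.9 ± 7.21 normalized counts in control juveniles and 93.7 ± 30.2 in control larvae, and its libraries did not overlap although it missed the threshold (adjusted p = 0.0619). The other genes of sterol synthesis were lower in control juveniles for 18 of 24 and higher for 1.

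The second comparison asked how irradiation moved these genes in juveniles, and set irradiated juveniles against control juveniles. Of 155 members, 10 were higher (6.45%, against 10.8% of all genes tested) and 7 were lower (4.52%, against 11.1%), which makes 11.0% in either direction, against 21.9%. The median log2 change of members was 0.00, or 0.03 with genes at 0 reads in 1 group set to their bound and those at or under 3 reads in both left out, against -0.04 over all genes. The share of members called was thus below that of all genes in both directions. By groups that did not overlap the shares were closer for rises. Members lay wholly higher for 17.4% (all genes 19.5%) and wholly lower for 12.9% (all genes 21.1%). Many members had low counts, which are harder to call, and the part of this in the shares was not tested.

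**Figure D4:**
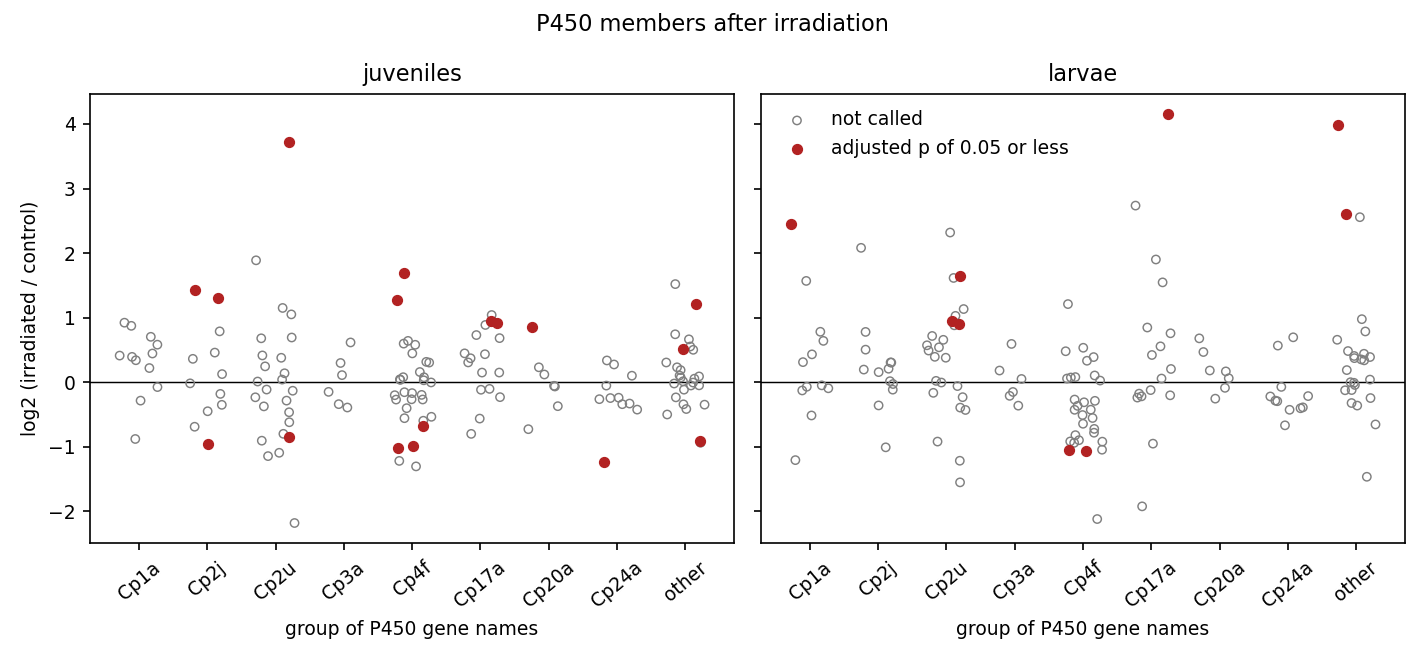
Change after irradiation (log2 of irradiated over control, vertical axis) for each member, by group of names, in juveniles (left) and larvae (right). Filled points passed the adjusted p of 0.05, and members with 3 reads or fewer in both groups are not drawn. Most members lay near 0 in both stages. In larvae 20 of the 30 Cp4f members drawn lay below 0, as did 9 of 11 Cp24a members.

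Cp2u1-35, on chromosome 1, changed most among the members called in juveniles. It had 63.6, 74.4 and 83.2 normalized counts in irradiated juveniles and 6.49, 3.11 and 6.18 in control juveniles. The groups lay far apart, with a log2 change of 3.72 ± 0.35 (SE, adjusted p = 4.81e-05). It also rose in larvae, with 83.6, 60.2 and 45.0 normalized counts in irradiated larvae and 18.4, 23.1 and 18.7 in control larvae (log2 1.65 ± 0.30, adjusted p = 0.0115). The larval call was lost without control larva library 1 (adjusted p = 0.0501), and the juvenile one was kept without each library in turn. In mammals the gene of this name hydroxylates long-chain fatty acids. Nearly all of its reads (99.8%) were placed uniquely.

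**Figure D5:**
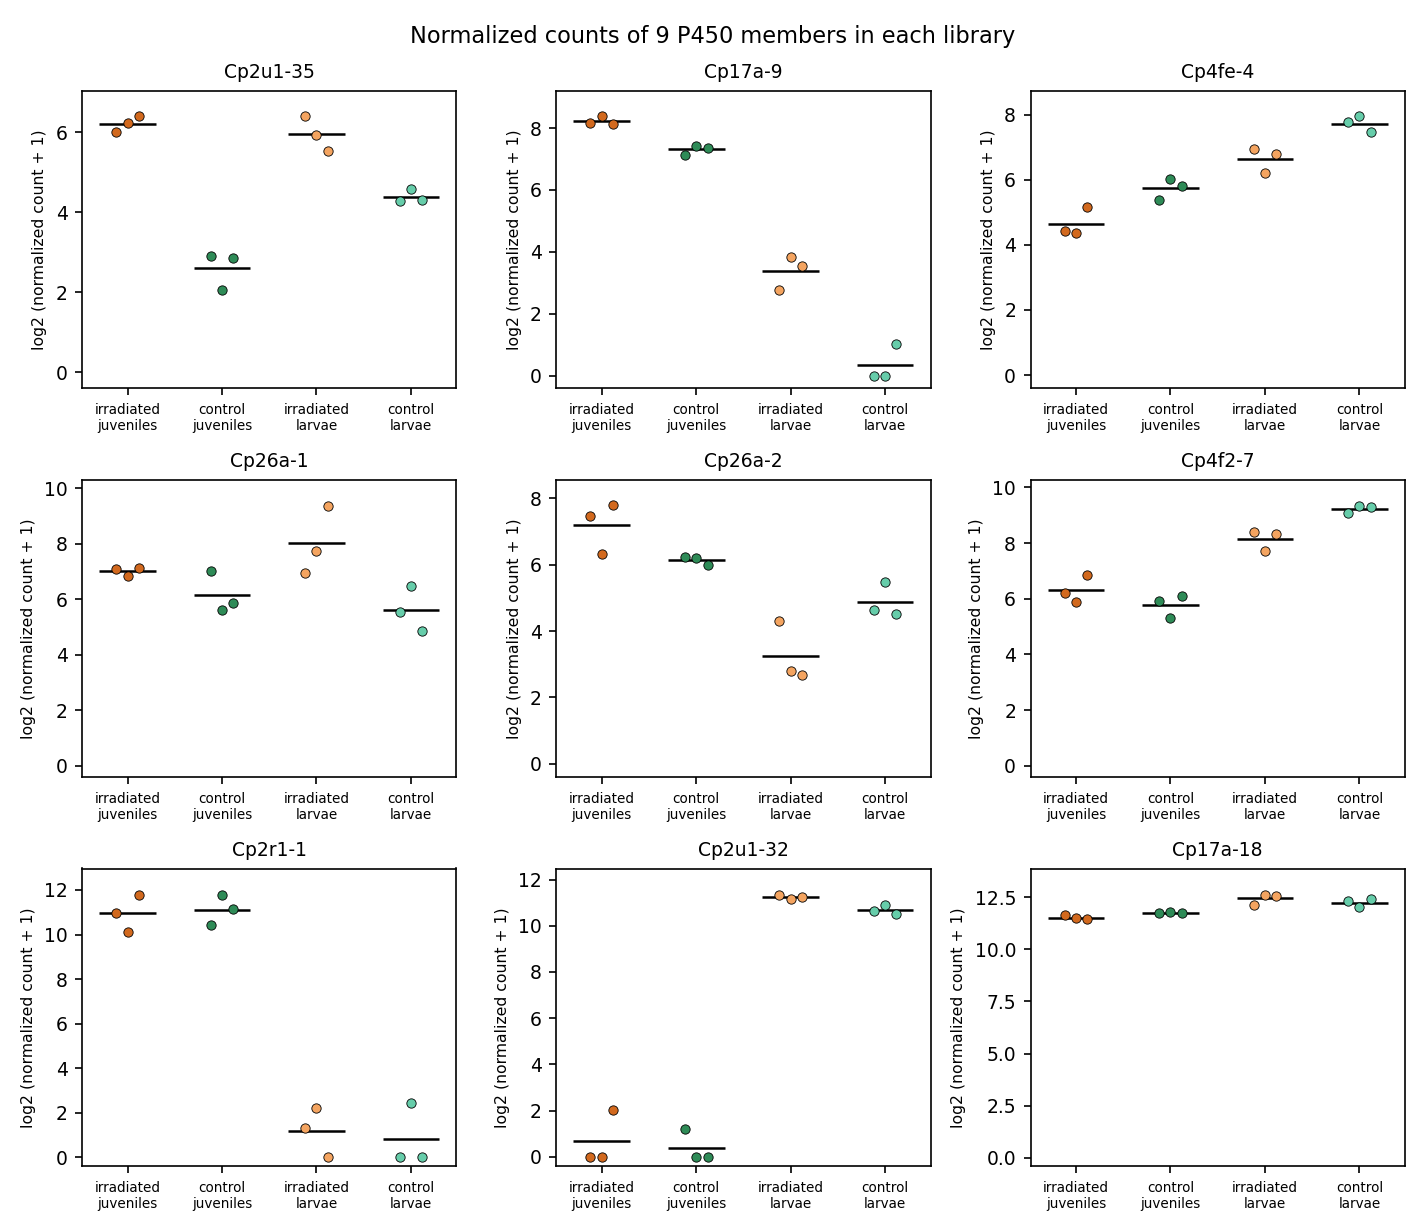
Normalized counts (log2 of the count + 1) of 9 members in each library, with irradiated juveniles, control juveniles, irradiated larvae and control larvae from left to right (points are libraries, lines are means of the log2 values). Cp2u1-35 and Cp17a-9 were higher and Cp4fe-4 lower in irradiated libraries of both stages without overlap, Cp2r1-1 and Cp2u1-32 split by stage, and Cp17a-18 was abundant in every library.

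Among steroid-named genes, 2 Cp17a members rose. Cp17a-13, on chromosome 2, had 1028, 844 and 891 normalized counts in irradiated juveniles and 455, 509 and 462 in control juveniles (log2 0.95 ± 0.14, adjusted p = 0.000654). Cp17a-9, on chromosome 8, had 288, 331 and 277 in irradiated juveniles and 140, 171 and 163 in control juveniles (log2 0.91 ± 0.21, adjusted p = 0.00738), and 46.0% of its reads were placed uniquely. In both genes the groups were apart. The summed count of the 7 Cp17a members on chromosome 8 was 972, 1067 and 841 in irradiated juveniles and 559, 414 and 679 in control juveniles, also without overlap.

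Fatty acid-named subfamilies moved both ways. Cp2j6-4, on chromosome 22, had 486, 423 and 483 normalized counts in irradiated juveniles and 231, 156 and 133 in control juveniles (log2 1.43 ± 0.22, adjusted p = 0.000726). Cp4fe-7, on chromosome 12, had 268, 225 and 299 in irradiated juveniles and 101, 70.1 and 74.9 in control juveniles (log2 1.69 ± 0.37, adjusted p = 0.00611). Smaller rises came with lower counts. Cp4fc-3 averaged 65.2 ± 16.4 in irradiated juveniles and 26.9 ± 2.48 in control juveniles, and Cp2j6-1 averaged 18.6 ± 5.30 in irradiated juveniles and 7.62 ± 1.43 in control juveniles, both without overlap. Cp13a, named for a nematode family, rose by 0.52 ± 0.16 on the log2 scale (adjusted p = 0.0362). The falls included Cp4fe-4, with 20.5, 19.7 and 34.6 normalized counts in irradiated juveniles and 40.2, 63.8 and 55.7 in control juveniles (log2 -1.02 ± 0.29, adjusted p = 0.0251). Cp4fe-3 and Cp4fe-2, both on chromosome 23, averaged 89.6 ± 5.67 and 59.7 ± 12.8 in irradiated juveniles and 174 ± 66.8 and 95.0 ± 16.3 in control juveniles. Cp2j2-2 averaged 11.6 ± 2.16 in irradiated juveniles and 24.2 ± 7.35 in control juveniles. So 3 of the 7 members that fell were Cp4fe copies, while a further copy, Cp4fe-7, rose.

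Of the 4 Cp2 members on chromosome 4 described above, which all had higher counts in control juveniles than in control larvae, 2 fell after irradiation. Over all genes tested, 11.1% fell. These 4 were picked by their stage difference, and both comparisons used the same control juvenile libraries. High values in those libraries would favour both results, so the falls are not independent of that choice. Cp2d9 had 176, 201 and 174 normalized counts in irradiated juveniles and 323, 265 and 445 in control juveniles (log2 -0.92 ± 0.24, adjusted p = 0.0156), and Cp2u1-48 had 183, 171 and 145 in irradiated juveniles and 254, 266 and 372 in control juveniles (log2 -0.85 ± 0.28, adjusted p = 0.0450). The others did not pass the test, with log2 -0.94 ± 0.44 for Cp2m1 (adjusted p = 0.155) and 0.01 ± 0.24 for Cp2u1-47 (adjusted p = 0.986). Cp20a-5 was the Cp20a gene that rose, with 515, 434 and 472 in irradiated juveniles and 222, 299 and 265 in control juveniles (log2 0.86 ± 0.17, adjusted p = 0.00296), and 54.5% of its reads lay in introns. Cp24a-5 fell, with 7.54, 11.2 and 14.0 in irradiated juveniles and 32.4, 21.8 and 25.4 in control juveniles (log2 -1.23 ± 0.35, adjusted p = 0.0253), but 55.0% of its reads were placed uniquely and it was not called on those alone (adjusted p = 0.127).

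The calls in juveniles differed in how they held when libraries were left out. Cp2u1-35, Cp4fe-7, Cp2j6-4, Cp17a-13, Cp17a-9 and Cp20a-5 kept theirs without each of the 12 libraries, and the other 11 lost theirs without at least 3 of them (adjusted p up to 0.197, for Cp2u1-48). Each of the 6 juvenile libraries was among those whose loss ended a call. The count of members that fell was 1 without irradiated juvenile library 1 or 2 or control juvenile library 3, 3 without control juvenile library 1, and 4 without irradiated juvenile library 3 or control juvenile library 2, and the count that rose was 6 without irradiated juvenile library 3 or control juvenile library 1. Tektins, which mark motile cilia, rose in irradiated juveniles for 3 of 3 genes, with a summed RPKM of 363 to 437 in irradiated juveniles and 190 to 211 in control juveniles. Muscle markers fell for 3 of 9 and rose for 0, with 1770 to 2100 in irradiated juveniles and 1980 to 2110 in control juveniles, and gut enzymes fell for 2 of 27 and rose for 0, with 218 to 226 and 242 to 343 in the same order. Their part in the P450 changes was not tested.

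The third comparison set irradiated larvae against control larvae. Of 155 members, 7 were higher (4.52%, against 1.87% of all genes tested) and 2 were lower (1.29%, against 2.05%), which makes 5.81% in either direction, against 3.92%. The greater number of rises was not kept by DESeq2, which called 10 higher and 10 lower. The median log2 change of members was 0.02, or 0.03 with genes at 0 reads set to their bound, against 0.01 over all genes.

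A Cp17a copy that rose in juveniles also rose here. Cp17a-9 had 5.82, 13.2 and 10.7 normalized counts in irradiated larvae and 0, 0 and 1.04 in control larvae. This was 29 reads in irradiated larvae against 1 in control larvae, a ratio of 22.3 with a counting interval of 3.70 to 912 (adjusted p = 0.00748). The call held without each library in turn and was lost on uniquely placed reads (adjusted p = 0.0705). The chromosome 8 copies together had 53.1, 57.8 and 93.2 normalized counts in irradiated larvae and 22.1, 29.7 and 19.7 in control larvae. Even so the irradiated larvae stayed well below the juveniles. The chromosome 8 set was picked by its stage difference, which used the same control larva libraries.

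Cp26a genes are named for the enzymes that break down retinoic acid. The 2 copies on chromosome 7 were called in different stages, and they were not tested against each other. Cp26a-1 had 123, 214 and 662 normalized counts in irradiated larvae and 46.1, 87.9 and 28.0 in control larvae (log2 2.61 ± 0.59, adjusted p = 0.0307). The groups were apart, but irradiated larva library 3 had the highest count, and the call was lost without it or without control larva library 1 or 3 (adjusted p = 0.0926 to 0.110), and with limma voom (adjusted p = 0.0844). In juveniles Cp26a-1 averaged 129 ± 14.4 normalized counts after irradiation and 77.9 ± 44.0 in controls, with overlapping libraries. Cp26a-2 had 178, 80.0 and 221 in irradiated juveniles and 73.9, 73.2 and 63.2 in control juveniles (log2 1.21 ± 0.40, adjusted p = 0.0468), against 18.9, 6.02 and 5.36 in irradiated larvae and 24.0, 43.9 and 21.8 in control larvae, where it was not called. Its juvenile call was lost without irradiated juvenile library 1 or 3, any control juvenile library or control larva library 1 (adjusted p = 0.0611 to 0.190). Of the other genes of retinoid metabolism and reception, 9 of 79 rose and 0 fell in irradiated juveniles, and 3 rose and 0 fell in irradiated larvae, beside the 10.8% and 1.87% of all genes that rose in these comparisons.

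Cp2bb, on chromosome 1, had 29.1, 414 and 394 normalized counts in irradiated larvae and 7.38, 39.5 and 3.11 in control larvae (log2 3.98 ± 0.92, adjusted p = 0.0325). The lowest irradiated library fell inside the range of the controls, and the call was lost without irradiated larva library 2 or 3 or control larva library 1 or 3 (adjusted p = 0.0806 to 0.118), and with limma voom (adjusted p = 0.271). Cp1a4-1, which is on the juvenile side of the stage comparison, had 24.0, 12.0 and 55.7 in irradiated larvae and 12.9, 4.39 and 2.07 in control larvae (log2 2.44 ± 0.60, adjusted p = 0.0415), with slight overlap. It lost its call without 9 of the 12 libraries, all but control juvenile library 2, irradiated larva library 2 and control larva library 1 (adjusted p = 0.0547 to 0.134). The remaining Cp1a members were not called in either irradiation comparison.

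The Cp2u subfamily held 3 of the 7 members that rose in larvae. Besides Cp2u1-35, Cp2u1-25 had 633, 550 and 563 normalized counts in irradiated larvae and 286, 272 and 373 in control larvae (log2 0.90 ± 0.17, adjusted p = 0.0183). Cp2u1-22 had 186, 107 and 160 in irradiated larvae and 60.9, 87.9 and 84.0 in control larvae (log2 0.95 ± 0.24, adjusted p = 0.0465). The libraries of both genes did not overlap. The call for Cp2u1-25 was lost without irradiated larva library 1 or 3 or control larva library 1 or 2 (adjusted p = 0.0505 to 0.0812), and that for Cp2u1-22 without any library but control juvenile library 2 and irradiated larva library 2 (adjusted p = 0.0519 to 0.165). Summed RPKM of the subfamily was 109 ± 10.2 in irradiated larvae and 73.8 ± 7.38 in control larvae. This sum leaned on a few abundant copies, with Cp2u1-32 alone at 31.7 ± 2.70 and 20.6 ± 3.17 in the same order. Of the 29 tested members, 26 were not called. The 4 copies on chromosome 20 together had 3932, 3636 and 3551 normalized counts in irradiated larvae and 2467, 2689 and 2435 in control larvae, with 70.9% of their reads placed uniquely. None of those copies was called on its own.

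Cp4f members leaned the other way in larvae. Of 31 tested, 20 had a negative and 11 a positive fitted change, beside 10054 and 10598 of all 20780 genes. Of the 31, 2 were called lower and 0 higher, beside 2.05% and 1.87% of all genes, and the median log2 change was -0.43. The irradiated libraries lay wholly below the controls for 12 of the 31 (38.7%, against 11.6% of all genes tested) and wholly above them for 1 (3.23%, against 12.6%). Summed RPKM was 63.1 ± 10.5 in irradiated larvae and 91.0 ± 12.5 in control larvae, without overlap. Cp24a members leaned down by sign as well, with 9 of 11 negative and a median log2 change of -0.29. The lean of Cp4f was picked out after the values were seen and carries no test of its own. The called genes were Cp4f2-7, on chromosome 19, with 340, 211 and 317 normalized counts in irradiated larvae and 535, 649 and 627 in control larvae (log2 -1.06 ± 0.25, adjusted p = 0.0323), and Cp4fe-4, with 123, 73.4 and 109 in irradiated larvae and 216, 246 and 177 in control larvae (log2 -1.05 ± 0.25, adjusted p = 0.0383). Among members that were not called, Cp4fe-5 had 177 ± 56.8 in irradiated larvae and 369 ± 52.4 in control larvae (adjusted p = 0.0764). Cp4fe-2 had 103 ± 8.07 and 177 ± 32.3 in the same order (adjusted p = 0.0517). None of the 11 with a positive fitted change was called, among them Cp4fc-3 (log2 1.21, adjusted p = 0.137). The call for Cp4f2-7 was lost without any larval library but irradiated larva library 1 (adjusted p = 0.0685 to 0.0945), and that for Cp4fe-4 without any larval library or control juvenile library 3 (adjusted p = 0.0525 to 0.112). Cp4fe-4 was also not called on exon reads alone (adjusted p = 0.222), and 41.2% of its reads lay in introns.

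Larval counts therefore rested on few libraries. The number of members that fell was 0 without irradiated larva library 2 or 3 or control larva library 1 or 3 and 1 without control larva library 2 or control juvenile library 3, and the number that rose was 2 without irradiated larva library 3 or control larva library 1 and 3 without control larva library 3. Gut enzymes were called for 0 of 27 genes, with a summed RPKM of 128 to 416 in irradiated larvae and 258 to 496 in control larvae, and muscle markers fell for 1 of 9 and rose for 0, with 249 to 429 and 282 to 316 in the same order. Their part in the P450 changes was not tested.

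The last comparison set the responses of both stages side by side. Cp17a-9 and Cp2u1-35 rose in both, which is 2 of the 10 that rose in irradiated juveniles and of the 7 that rose in irradiated larvae. Cp4fe-4 fell in both, 1 of the 7 juvenile and 1 of the 2 larval falls, and no member was called in opposite directions. Such overlaps were not counted over all genes tested, so they are not shown to be particular to P450 genes. The test of the difference between the responses called 5 members (3.23%, against 3.47% of all genes tested). The juvenile minus the larval log2 change was positive for 4 (2.58%, against 1.87%) and negative for 1, Cp17a-9 (0.645%, against 1.6%). Cp2u1-35 had a difference of 2.08 ± 0.47 on the log2 scale (adjusted p = 0.0333), Cp26a-2 of 2.67 ± 0.66 (adjusted p = 0.0450), Cp4f2-7 of 1.64 ± 0.37 (adjusted p = 0.0334) and Cp17a-13 of 0.90 ± 0.20 (adjusted p = 0.0307). A positive difference did not always mean the greater change in juveniles: Cp4f2-7 fell in irradiated larvae and had a juvenile log2 change of 0.58 that was not called (adjusted p = 0.161), and Cp26a-2 rose in irradiated juveniles and had a larval log2 change of -1.46 that was not called (adjusted p = 0.134). None of the 5 kept its call without each library in turn: Cp17a-13 lost it without 5 of the 12 and the others without 8 to 10, with adjusted p up to 0.132. The count itself was 0 without irradiated juvenile library 1 or control juvenile library 1, 1 without irradiated juvenile library 3, control juvenile library 2 or 3, irradiated larva library 2 or 3 or control larva library 1, 2 without control larva library 2, 3 without irradiated juvenile library 2 and 8 without irradiated larva library 1.

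Genes that work with P450 enzymes were read from lists of names. The list of P450 electron donors and haem held 10 genes, of which 8 were tested. Of the 8, 3 rose in irradiated juveniles and 0 fell, beside 10.8% and 11.1% of all genes. Those that rose were adrenodoxin (Adx, log2 0.97, adjusted p = 0.00142), NADPH-P450 reductase (Ncpr-3, 0.50, adjusted p = 0.00685) and cytochrome b5 (Cyb5, 0.57, adjusted p = 0.0038). None of the 8 was called in irradiated larvae (0 of 8 in each direction). Between the control groups 3 of the 8 were lower in juveniles and 0 higher, beside 29.8% and 32.8% of all genes. The summed RPKM of the 10 genes was 209 to 229 in irradiated juveniles, 154 to 170 in control juveniles, 249 to 283 in irradiated larvae and 197 to 230 in control larvae, so the irradiated libraries were above the controls in both stages.

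The conjugating enzymes that act on P450 products, and related genes, were counted in the same way. Glutathione transferases rose in irradiated juveniles for 11 of 46 tested and fell for 1, and in irradiated larvae rose for 1 and fell for 2. Sulfotransferases rose for 9 of 95 and fell for 5 in irradiated juveniles, and rose for 0 and fell for 1 in irradiated larvae. ABC efflux transporters rose for 3 of 62 and fell for 9 in irradiated juveniles, and rose for 0 and fell for 2 in irradiated larvae. Flavin monooxygenases, which oxidise many of the same compounds without haem, rose for 1 of 31 and fell for 3 in irradiated juveniles, and rose for 0 and fell for 1 in irradiated larvae. UDP-glucuronosyltransferases rose for 1 of 11 and fell for 0 in irradiated juveniles, and none was called in irradiated larvae. Of 8 epoxide hydrolases and arylamine acetyltransferases, 1 rose in irradiated juveniles and none was called in irradiated larvae. Of 21 receptors and regulators of foreign-compound metabolism, 1 rose and 2 fell in irradiated juveniles, among them the aryl hydrocarbon receptor gene Ahr-1 (log2 -1.23, adjusted p = 0.00433), and none was called in irradiated larvae. Each share is to be read beside the 10.8% of all genes that rose and 11.1% that fell in irradiated juveniles, and the 1.87% and 2.05% in irradiated larvae. The juvenile counts rested partly on single libraries. The 11 glutathione transferases that rose were 6 without control juvenile library 1 and 7 without control juvenile library 2 or irradiated juvenile library 2. The 9 sulfotransferases that rose were 2 without irradiated juvenile library 1, 3 without control juvenile library 1 and 5 without library 2 of either juvenile group, and the 9 ABC transporters that fell were 5 without irradiated juvenile library 1.

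Between the control groups these lists moved in both directions, beside 32.8% of all genes higher and 29.8% lower in control juveniles. Sulfotransferases were higher in control juveniles for 43 of 95 and lower for 31, flavin monooxygenases for 14 and 5 of 31, retinoid genes for 32 and 24 of 79, and regulators for 9 and 5 of 21. Glutathione transferases were higher for 13 of 46 and lower for 21, UDP-glucuronosyltransferases for 3 and 7 of 11, ABC transporters for 27 and 25 of 62, and epoxide hydrolases and acetyltransferases for 1 and 2 of 8. With 10 reads or more asked of each library, which leaves out genes near 0 in either stage, sulfotransferases were higher for 7 and lower for 16, flavin monooxygenases for 3 and 0, glutathione transferases for 6 and 13, UDP-glucuronosyltransferases for 0 and 3, retinoid genes for 16 and 17 and ABC transporters for 8 and 18. Sterol synthesis genes, called for 18 of 24 as lower in control juveniles, rose for 5 and fell for 2 in irradiated juveniles and were called for 0 in irradiated larvae.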

How the data were processed

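The authors aligned 75-base read pairs with CLC Genomics Workbench to version 2.0 of the species’ annotated genome and deposited 1 table per library. The deposited counts are whole reads per gene (exon and intron reads, those placed at several sites included), with uniquely placed reads alongside. How multiply placed reads were shared is not given in the sources used here. The deposited RPKM values are the authors' exon reads scaled by exon length and mapped reads. Per the submitters' notes, differential expression used DESeq2.

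From the total gene reads of 12 libraries, 1 edgeR 4.0.16 quasi-likelihood model (TMM, filterByExpr, 1 mean per group, R 4.3.3) was fitted over all 20780 genes passing the filter, with two-sided tests and Benjamini-Hochberg adjustment over all of them, called at 0.05. TMM factors ran from 0.931 to 1.07 and the common biological coefficient of variation was 0.208. Libraries of 3 per group and 7675726 to 26974509 reads limit the precision, and counting intervals cover counting error only. No 2 libraries of a group agreed within sampling noise. Alternatives were DESeq2 1.42.0, limma 3.58.1 voom, other scalings and filters, unique or exon reads, a replicate block, a threshold of 0.01, and each library left out. The members and gene lists were chosen with earlier results of these data known.

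Named were all members called after irradiation (up to 10 a direction), the 10 largest stage differences in each direction among members whose groups did not overlap and whose control mean was 20 or more normalized counts, the 5 highest RPKM per control group, members of Cp1 and of single-reaction families (by subfamily, with called examples), and members whose response differed between stages. Grouping by distance along chromosomes was not done, as positions were not used here. Other marker lists gave 0 of 4 neuron, 0 of 6 germline and 0 of 14 trunk Hox genes called in either irradiation comparison. Between control groups gut enzymes were higher in juveniles for 14 of 27 and lower for 7, neuron genes for 0 and 3 of 4, germline genes for 1 and 2 of 6 and tektins for 2 and 1 of 3.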

Additional observations from a re-analysis of the deposited data

Results flagged for a closer look

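A test of the difference between the irradiation responses of juveniles and larvae singled out 5 members. The difference, juvenile response minus larval response on the log2 scale, was 0.90 for Cp17a-13, 2.08 for Cp2u1-35, 1.64 for Cp4f2-7, -3.24 for Cp17a-9 and 2.67 for Cp26a-2 (edgeR quasi-likelihood test, adjusted p = 0.0307, 0.0333, 0.0334, 0.0409 and 0.0450, in that order). Cp17a-13 rose in juveniles, with 921 ± 95.5 normalized counts in irradiated juveniles and 476 ± 29.3 in control juveniles, against 2187 ± 194 in irradiated larvae and 2101 ± 369 in control larvae. Cp4f2-7 had 82.2 ± 30.1 in irradiated juveniles and 55.3 ± 14.7 in control juveniles, against 289 ± 68.8 in irradiated larvae and 604 ± 60.5 in control larvae. For Cp17a-9 the difference rests on 1 read in control larvae, and its size depends on that floor. Doses differed between the stages, so dose and stage cannot be told apart.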

How the results depend on the processing

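No result for a single gene changed direction, and 45 of 76 kept their call under every alternative that tested them. Not all could be tested each time. Only 24 of the 76 had a result with 10 reads or more asked of each library, and 69 with only the groups compared. The stage counts (47 lower, 58 higher) were 41 to 48 and 47 to 62 under the other settings that used all libraries of the groups compared. With 10 reads or more asked of each library they were 24 and 15, so the greater number turned from higher to lower. The members tested and the shares of all genes called under that filter were not counted. The same filter gave 4 lower and 2 higher in irradiated larvae, 3 lower and 4 higher in irradiated juveniles, and 2 differing responses. DESeq2 gave 10 lower and 10 higher in larvae and 9 differing responses, and limma voom 4 lower in larvae and 3 differing responses. Fitting only the groups compared gave 1 lower and 2 higher in larvae and 17 higher in juveniles. Uniquely placed reads gave 4 lower in larvae, and exon reads 3 differing responses. At an adjusted p of 0.01, larvae had 0 lower and 1 higher, juveniles 0 lower and 6 higher, and 0 responses differed. Leaving out 1 library gave 0 to 3 lower and 2 to 8 higher in larvae, 1 to 9 and 6 to 15 in juveniles, 41 to 49 and 53 to 63 between stages, and 0 to 8 differing responses. Deposited RPKM recomputed on effective library sizes was 1.29 to 1.34 times as high for the 14 levels compared. These were levels of the highest-ranked members in the control groups, and 11 of them moved by at least the SD of their libraries. Other scalings moved the median of all genes by at most 0.0629 (log2).

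Deviations of same-numbered libraries from their group means correlated between -0.0646 and 0.0460. Differently numbered libraries were not compared, so these values do not settle whether replicate numbers pair the samples. A replicate block gave 1 lower and 3 higher in larvae, 4 lower in juveniles and 1 differing response. The causes were not tested. Counts for gene lists moved too: among sulfotransferases, 2 to 13 rose in irradiated juveniles and 7 to 55 were higher and 16 to 35 lower in control juveniles, against 9, 43 and 31. With 3 libraries a group, a member that was not called may still have changed.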
